A study of Mus musculus with 9 samples.

Results

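The 35 genes described here encode the proteins that shorten poly(A) tails, remove the cap and degrade messenger RNA in the mouse. They were taken by symbol, as the rows of the count and FPKM tables that carry an NCBI gene identifier, out of 21877 such genes and 50493 rows in all, by a rule that uses symbols alone. By role they are 7 scaffold and module genes of the CCR4-NOT complex, 7 genes of the deadenylase enzymes, 8 decapping and P-body genes, 2 genes of 5′ to 3′ exonucleases, 9 genes of nonsense-mediated decay and 2 genes of terminal uridylyl transferases. All 35 had a row and all 35 had enough counts to be tested. The RNA came from the testis of wild-type (WT) mice, with no treatment named, from pachytene spermatocytes (PAC), which are cells in meiotic prophase, from round spermatids (RS), which are haploid, and from the later spermatids that the labels call elongation spermatids (ES). Each cell type has 3 libraries of total RNA depleted of ribosomal RNA, and the design text calls them biological replicates. No source used here gives the strain, the age, the way the cells were isolated or how many animals stand behind a library, so the p-values measure the spread between these libraries.

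Most messenger RNAs are degraded by a pathway that starts at the tail. The PAN2-PAN3 enzyme and the CCR4-NOT complex shorten the poly(A) tail, the decapping enzyme DCP2 with its activators then removes the cap, and the exonuclease XRN1 digests the body of the RNA from its 5′ end. Nonsense-mediated decay feeds transcripts that stop translation too early into the same enzymes, and terminal uridylyl transferases mark RNAs with short tails for decay. Male germ cells are known for storing messenger RNAs for later translation, and in mice uridylation, CCR4-NOT subunits and nonsense-mediated decay factors are needed for normal spermatogenesis.

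Total counts per library ran from 22910156 to 33801617. Levels are given as CPM, which are counts relative to the library's total after scaling by TMM factors, and as the deposited FPKM where 2 genes are compared, since FPKM is per transcript length. Of 10 PAC markers 9 were lower in RS than in PAC, and 10 of 10 ES markers were higher in ES than in RS and already higher in RS than in PAC. Markers of other testis cells were also detected. The summed level of 10 Sertoli markers was 39.3 to 87.7 CPM in PAC, 8.24 to 8.85 CPM in RS, where Amh had no counts, and 279 to 323 CPM in ES. Macrophage and blood markers summed to 4.20 to 4.67 CPM in PAC, 15.8 to 17.7 CPM in RS and 134.9 to 213 CPM in ES. Leydig markers summed to 88.5 to 122 CPM in PAC, 1.86 to 2.19 CPM in RS, where Lhcgr had no counts, and 18.4 to 24.3 CPM in ES. Spermatogonial markers summed to 92.1 to 119.8 CPM in PAC, 35.9 to 39.0 CPM in RS and 39.8 to 48.5 CPM in ES. Most of the PAC sum was Id4 (means of 86.7, 6.99 and 18.2 CPM in PAC, RS and ES). Most of the RS sum was Gfra1 (10.2, 24.8 and 12.5 CPM). Of the 8 markers 4 were lower in RS than in PAC, 2 (Gfra1 and Nanos3) were higher and 2 were not called, so the sum does not stand for the list. Peritubular and vascular markers summed to 5.94 to 8.18, 13.6 to 22.7 and 21.4 to 24.8 CPM in the same order. The part of these cells in the results below was not tested. In bulk RNA, fewer cells of a type and less RNA per cell cannot be told apart.

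The promoters of the LSM14 and UPF3 paralogs are shown because in each of these pairs 1 gene was higher in RS than in PAC while its partner was lower or was not called. The same holds for Cnot6l and Cnot6, which are not shown since the table lists 3 starts for Cnot6l. Each line gives the 250 bases before a RefSeq transcript start in GRCm38.p6, 5′ to 3′ on the gene's own strand. Capitals mark a CRE half-site, TGACG on either strand, the core bases of the sites bound by CREM, a transcription factor of postmeiotic germ cells.
Lsm14a, chr7:34389706-34389955, minus strand: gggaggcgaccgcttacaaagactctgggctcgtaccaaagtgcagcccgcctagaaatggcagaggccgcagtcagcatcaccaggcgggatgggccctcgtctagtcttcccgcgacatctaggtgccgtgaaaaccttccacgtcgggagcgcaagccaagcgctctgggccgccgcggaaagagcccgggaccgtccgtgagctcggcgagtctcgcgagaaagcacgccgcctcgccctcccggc
Lsm14b, chr2:180024737-180024986, plus strand: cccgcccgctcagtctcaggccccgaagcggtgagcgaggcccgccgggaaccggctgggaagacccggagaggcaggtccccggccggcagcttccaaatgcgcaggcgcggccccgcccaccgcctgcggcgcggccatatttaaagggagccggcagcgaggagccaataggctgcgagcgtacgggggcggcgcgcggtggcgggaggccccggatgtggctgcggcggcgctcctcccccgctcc
Upf3a, chr8:13785365-13785614, plus strand: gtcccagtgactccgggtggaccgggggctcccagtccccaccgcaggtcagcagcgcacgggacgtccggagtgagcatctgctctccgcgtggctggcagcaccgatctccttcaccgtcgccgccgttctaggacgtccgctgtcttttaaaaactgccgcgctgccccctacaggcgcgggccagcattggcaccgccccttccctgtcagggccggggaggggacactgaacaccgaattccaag
Upf3b, chrX:37110323-37110572, minus strand: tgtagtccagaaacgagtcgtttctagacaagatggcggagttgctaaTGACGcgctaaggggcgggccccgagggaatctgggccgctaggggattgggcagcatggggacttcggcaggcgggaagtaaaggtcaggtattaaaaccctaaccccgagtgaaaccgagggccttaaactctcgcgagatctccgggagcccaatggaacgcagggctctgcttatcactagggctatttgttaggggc
Only the Upf3b window of these 4 held a TGACG, and none of the 4 held a MYB-type site, searched as CAACNG and TAACNG on both strands, which are the core bases bound by MYBL1, a transcription factor of pachytene spermatocytes. Among the windows of all 31 matched decay genes, 9 of 39 held a TGACG (23.1%) and 13 held a MYB-type site (33.3%). Among 15129 windows of 11980 protein-coding genes tested, the shares were 23.9% and 41.1%. A match is a match of letters, and no factor's binding was measured. The decay genes' windows had a median of 22 CpG and 65.2% GC, against 14 CpG and 58.4% GC in the windows of the protein-coding genes. Promoter windows of Cnot1, Cnot7, Dcp2 and Ddx6 were not used here.

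In RS most of the decay genes were at lower levels than in PAC. Of the 35 genes, 21 (60.0%) were lower, 5 (14.3%) were higher and 9 were not called (edgeR's quasi-likelihood test, Benjamini-Hochberg adjusted p below 0.05). Among the 14833 protein-coding genes tested 46.9% were called lower and 26.3% were called higher, and over all 26030 features the shares were 34.2% and 38.2%. The median log2 fold change of the 35 genes was -1.04, against -0.46 for protein-coding genes and 0.11 for all features. The 5 genes that were higher in RS were Cnot6l, Parn, Lsm14a, Xrn2 and Upf3b. In the same comparison 8 of 9 tested Sertoli markers and 7 of 7 Leydig markers were lower. With upper-quartile scaling the median of all features moved to 0.42. Under the 5 count scalings run, the median of the 35 genes lay 0.57 to 0.58 below that of protein-coding genes. A scaling moves all genes nearly alike, so it could hardly change this gap. The 35 genes' median minus that of protein-coding genes was -0.42 without PAC replicate 3 and -0.44 without RS replicate 1. It was -0.68 with no filter on low counts.

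In ES the decay genes moved apart relative to RS. Of the 35 genes, 11 (31.4%) were higher, 5 (14.3%) were lower and 19 were not called, while 31.8% and 21.7% of protein-coding genes and 24.5% and 22.1% of all features were called. The shares called higher are close to each other and say nothing particular of decay genes. The medians were 0.20 for the 35 genes, 0.18 for protein-coding genes and 0.05 for all features. In the same comparison 9 of 9 tested Sertoli markers and 7 of 7 Leydig markers were higher, and of the 10 PAC markers 4 were higher and 2 were lower, with a sum of 536 to 738 CPM in ES and 544 to 583 CPM in RS. With total counts in place of TMM factors the split was 7 higher and 10 lower, and with the rows of NCBI genes alone it was 10 higher and 8 lower.

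Against PAC, 21 genes (60.0%) were lower in ES, 3 (8.57%) were higher and 11 were not called. The background was 42.6% lower and 25.2% higher among protein-coding genes, and 33.7% and 30.6% among all features. The median log2 fold change was -0.95, against -0.38 for protein-coding genes and -0.09 for all features. Cnot6l, Parn and Lsm14a were the 3 genes above PAC. In the same comparison 9 of 9 tested Sertoli markers and 7 of 7 tested macrophage and blood markers were higher, and 7 of 7 Leydig markers were lower. With upper-quartile factors the split was 6 higher and 18 lower, and without PAC replicate 3 it was 6 higher and 19 lower. The comparisons with PAC share the PAC libraries and are given side by side.

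**Figure D1:**
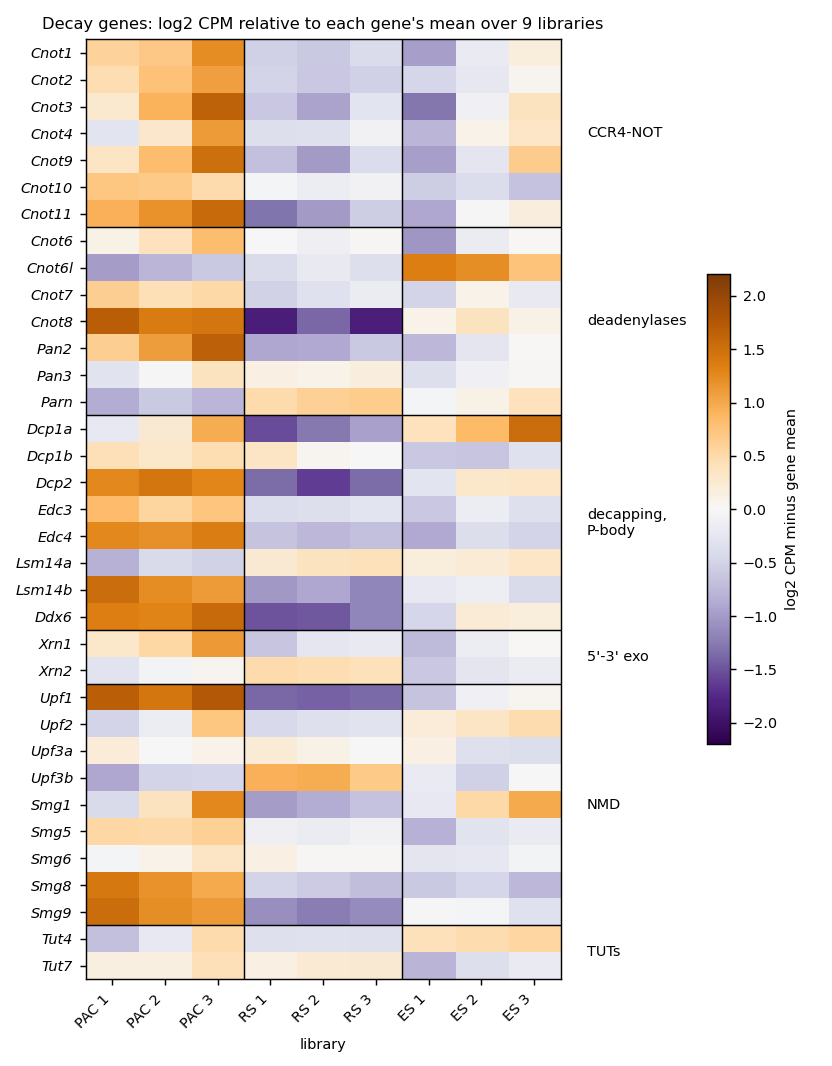
Log2 CPM of the 35 decay genes (rows, grouped by role) in each of the 9 libraries (columns), minus the gene's own mean over the 9 libraries, with orange above and purple below that mean. Most rows are orange in PAC, and Cnot6l is orange in ES only; PAC replicate 3 and ES replicate 3 are often higher than replicate 1 of the same cell type.

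All PAC libraries lay above all RS and ES libraries for 18 of the 35 genes (51.4%), as they did for 36.1% of protein-coding genes. RS libraries lay below all others for 9 genes (25.7%, against 22.9% of protein-coding genes): Cnot2, Cnot8, Dcp1a, Dcp2, Lsm14b, Ddx6, Upf1, Smg1 and Smg9. ES libraries lay below all others for Cnot10, Dcp1b, Smg5, Smg6 and Tut7 (14.3%, against 16.2%). RS libraries lay above all others for Parn, Xrn2 and Upf3b (8.57%, against 13.7%), and ES libraries for Cnot6l alone (2.86%, against 17.4%). PAC libraries lay below all others for Cnot6l, Parn and Lsm14a (8.57%, against 17.4%).

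By FPKM the order of the genes differed between cell types. In PAC the highest were Smg9 (177 ± 23.1 FPKM, SD, n = 3), Cnot1 (141 ± 35.7) and Upf3a (96.2 ± 4.31). In RS they were Upf3a (102 ± 8.64 FPKM), Cnot1 (56.6 ± 3.76) and Smg5 (42.3 ± 1.94), and in ES Upf3a (65.5 ± 5.61 FPKM), Cnot1 (55.3 ± 24.8) and Smg9 (55.0 ± 6.06). In ES these 3 genes do not differ beyond the spread of Cnot1. The lowest were Cnot3, at 0.992 ± 0.390 FPKM in PAC, 0.293 ± 0.0613 in RS and 0.345 ± 0.197 in ES, and Dcp2, at 1.88 ± 0.178, 0.290 ± 0.0312 and 0.698 ± 0.217 FPKM in PAC, RS and ES.

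Most CCR4-NOT scaffold genes were lower after meiosis. Of the 7 genes, 6 (85.7%) were lower in RS than in PAC and Cnot4 was not called. In ES against PAC 5 (71.4%) were lower, with Cnot4 and Cnot9 not called. Among protein-coding genes 46.9% and 42.6% were lower in these comparisons, and among all features 34.2% and 33.7%. The difference from the background was not tested. The summed level of the 7 genes was 1334 ± 327 CPM in PAC, 546 ± 35.7 CPM in RS and 635 ± 216 CPM in ES (SD, n = 3 each). Cnot1 made up most of that sum, with 1049, 404 and 485 CPM in PAC, RS and ES. Cnot11, which with Cnot10 forms a module at one end of the complex, had 8.90, 10.6 and 13.7 CPM in PAC, 1.90, 2.32 and 3.15 CPM in RS, and 2.49, 4.57 and 5.21 CPM in ES. Every RS and ES library lay below every PAC library, and the RS and ES libraries overlapped. Cnot11 showed the largest change of the 7 genes in both comparisons with PAC: log2 fold change -2.17 in RS (SE 0.30, adjusted p = 6.27e-05) and -1.43 in ES (SE 0.29, adjusted p = 0.00117). Its ES against RS value was 0.74 (adjusted p = 0.0639), and passed without ES replicate 1 (0.99, adjusted p = 0.0102) or without RS replicate 3 (0.95, adjusted p = 0.0489).

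Cnot10 was the only scaffold gene called between ES and RS. It had 95.1, 92.9 and 81.0 CPM in PAC, 55.9, 52.4 and 54.8 CPM in RS, and 39.0, 44.1 and 36.5 CPM in ES. The 3 cell types did not overlap and each later cell type was lower than the one before it. The log2 fold change was -0.72 for RS against PAC (SE 0.13, adjusted p = 0.000422), -0.45 for ES against RS (SE 0.13, adjusted p = 0.0148) and -1.17 for ES against PAC (SE 0.13, adjusted p = 1.44e-05). The ES against RS call was lost without ES replicate 3 (-0.40, adjusted p = 0.054), without RS replicate 1 (-0.44, adjusted p = 0.0541) and with DESeq2 size factors (-0.30, adjusted p = 0.0826).

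Cnot1, the large scaffold protein on which the complex is built, averaged 404 ± 26.5 CPM in RS and 1049 ± 267 CPM in PAC (log2 fold change -1.38, SE 0.27, adjusted p = 0.000899), and 485 ± 182 CPM in ES (-1.11 against PAC, SE 0.27, adjusted p = 0.00353). In ES its libraries ranged from 292 to 653 CPM, and its ES against RS value of 0.26 passed without ES replicate 1 (0.53, adjusted p = 0.0429). Cnot2 and Cnot3, which form the NOT module, changed by -1.33 (adjusted p = 5.99e-05) and -1.64 (adjusted p = 0.00507) in RS against PAC, and by -0.99 (adjusted p = 0.000514) and -1.22 (adjusted p = 0.0272) in ES against PAC. The ES against PAC call of Cnot3 was lost when PAC replicate 3 was left out (-0.82, adjusted p = 0.129), and also without ES replicates 1 (-0.89, adjusted p = 0.0804) or 2 (-1.26, adjusted p = 0.0625). Cnot3 averaged 3.25, 1.04 and 1.38 CPM in PAC, RS and ES. It shares 1003 bases of its span with Leng1, which averaged 23.9, 10.7 and 7.62 CPM in the same order. The part of these shared bases in its counts was not tested.

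Cnot9, a subunit that contacts RNA-binding adaptors, averaged 10.2 ± 2.15 CPM in RS and 31.7 ± 13.0 CPM in PAC (log2 fold change -1.63, SE 0.41, adjusted p = 0.00537). Its ES against PAC value of -1.0 (adjusted p = 0.0535) passed without ES replicate 3 (-1.54, adjusted p = 0.00356) or without PAC replicate 1 (-1.25, adjusted p = 0.0221). That value also passed with total counts alone (-1.25, adjusted p = 0.0355) and with a block for replicate number (-1.05, adjusted p = 0.00166). So it did with DESeq2's Wald test (-0.92, adjusted p = 0.0253) and on log2(FPKM + 1) with limma (-1.12, adjusted p = 0.0123). Cnot9 lies wholly inside the annotated span of Usp37, which averaged 151 CPM in RS and 122 CPM in PAC, and the counting rule for shared bases is not stated. Cnot4, the ubiquitin ligase subunit, averaged 73.2 ± 35.4 CPM in PAC, 44.1 ± 5.03 CPM in RS and 50.6 ± 17.7 CPM in ES. Its RS against PAC value of -0.73 (adjusted p = 0.08) passed without PAC replicate 1 (-1.0, adjusted p = 0.0169), as did its ES against PAC value (-0.82, adjusted p = 0.0424).

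Of the 7 deadenylase genes 2 were higher in RS than in PAC (Cnot6l and Parn, 28.6%), 3 were lower (Cnot7, Cnot8 and Pan2, 42.9%) and Cnot6 and Pan3 were not called. These shares are close to the 26.3% and 46.9% of protein-coding genes, and over all features the shares were 38.2% and 34.2%. Between ES and RS Cnot6l and Cnot8 were higher in ES and the other 5 were not called. In ES against PAC Cnot6l and Parn were higher, Cnot6, Cnot7, Cnot8 and Pan2 were lower and Pan3 was not called. The 28.6% higher in each of these comparisons is close to the 31.8% and 25.2% of protein-coding genes and the 24.5% and 30.6% of all features. In ES against PAC 57.1% were lower, against 42.6% of protein-coding genes and 33.7% of all features, a difference that was not tested.

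Cnot6 and Cnot6l encode alternative CCR4-type catalytic subunits of CCR4-NOT. Cnot6l had 11.0, 12.9 and 14.4 CPM in PAC, 16.5, 19.1 and 17.2 CPM in RS, and 55.7, 50.6 and 36.6 CPM in ES. The cell types did not overlap, and ES was highest in every library. Log2 fold changes were 0.46 for RS against PAC (SE 0.18, adjusted p = 0.0359), 1.44 for ES against RS (SE 0.18, adjusted p = 7.69e-05) and 1.90 for ES against PAC (SE 0.18, adjusted p = 5.28e-06). The RS against PAC call held in 4 of the 9 fits that left out a library, was lost in the fits without PAC replicate 1 or 2 or any RS replicate (log2 fold change 0.36 to 0.52), and was lost with DESeq2 size factors (0.41, adjusted p = 0.0651). Its partner Cnot6 had 44.9, 54.4 and 72.9 CPM in PAC, 41.2, 38.6 and 42.2 CPM in RS, and 20.2, 37.0 and 41.9 CPM in ES. Its RS and ES libraries all lay below its PAC libraries. The RS against PAC value was -0.50 (SE 0.25, adjusted p = 0.0929), and it passed without ES replicate 1 (-0.49, adjusted p = 0.0195). The ES against PAC value was -0.80 (SE 0.25, adjusted p = 0.0161), and it was lost without PAC replicate 3 (-0.61, adjusted p = 0.0628).

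Cnot7 and Cnot8 encode alternative CAF1-type catalytic subunits. Cnot8 had 33.0, 26.8 and 27.6 CPM in PAC, 2.80, 3.93 and 2.83 CPM in RS, and 10.9, 13.1 and 11.1 CPM in ES. The 3 cell types did not overlap: RS was lowest and ES lay between RS and PAC. RS was 9.12-fold below PAC (log2 fold change -3.19, SE 0.19, adjusted p = 2.12e-07), the largest change of the 35 genes. ES was 3.67-fold above RS (1.87, SE 0.19, adjusted p = 1.77e-05) and 2.49-fold below PAC (-1.31, SE 0.18, adjusted p = 5.84e-05). Cnot7 had 102, 90.3 and 94.5 CPM in PAC, 46.8, 53.2 and 59.3 CPM in RS, and 47.3, 70.5 and 57.5 CPM in ES. Its RS and ES libraries lay below all PAC libraries and overlapped each other, with log2 fold changes of -0.85 in RS (SE 0.16, adjusted p = 0.000663) and -0.71 in ES (SE 0.16, adjusted p = 0.00232) against PAC. Cnot7 shares 4106 bases of its span with Vps37a, which averaged 139 CPM in PAC, 98.4 CPM in RS and 67.9 CPM in ES.

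Pan2, the catalytic subunit of PAN2-PAN3, averaged 7.39 ± 0.914 CPM in RS and 28.9 ± 10.3 CPM in PAC (log2 fold change -1.97, adjusted p = 5.98e-05), and 10.4 ± 2.63 CPM in ES (-1.48 against PAC, adjusted p = 0.000466). Its partner Pan3, which binds the poly(A)-binding protein, averaged 118 ± 28.5 CPM in PAC, 126 ± 3.24 CPM in RS and 105 ± 13.9 CPM in ES, and was not called in any of the 3 comparisons. Parn, a poly(A)-specific ribonuclease outside these complexes, averaged 12.4 ± 0.662 CPM in RS and 5.0 ± 0.447 CPM in PAC (1.32, adjusted p = 4.62e-05), and 9.27 ± 1.47 CPM in ES (0.89 against PAC, adjusted p = 0.000851). Its ES against RS value of -0.42 (adjusted p = 0.0614) passed without PAC replicate 1 (-0.44, adjusted p = 0.0475) or without ES replicate 3 (-0.56, adjusted p = 0.0302).

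**Figure D2:**
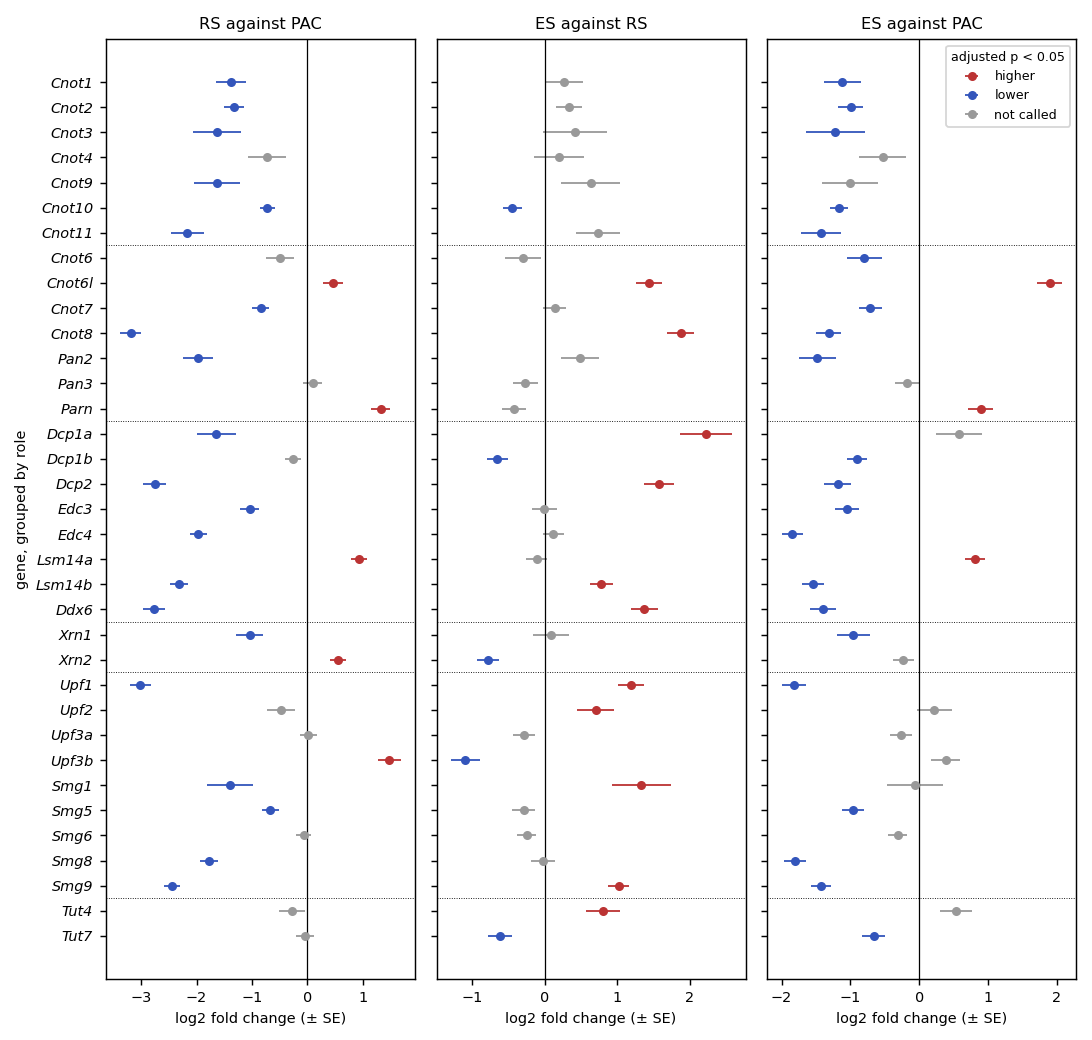
Log2 fold change (points) and its standard error (bars) of each decay gene for RS against PAC, ES against RS and ES against PAC, with genes grouped by role from top to bottom and coloured by edgeR's call. Cnot8 and Upf1 are farthest to the left in RS against PAC, and Dcp1a is farthest to the right in ES against RS.

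Of the 8 decapping genes 6 were lower in RS than in PAC, Lsm14a was higher and Dcp1b was not called. In ES against RS Dcp1a, Dcp2, Lsm14b and Ddx6 were higher and Dcp1b was lower. In ES against PAC 6 were lower, Lsm14a was higher and Dcp1a was not called. Among protein-coding genes 46.9% were lower in RS against PAC, 31.8% higher in ES against RS and 42.6% lower in ES against PAC. Over all features these shares were 34.2%, 24.5% and 33.7%. A single gene of the 8 is 12.5%, and the difference from the background was not tested. The 8 genes summed to 548 ± 30.5 CPM in PAC, 203 ± 6.25 CPM in RS and 239.7 ± 34.6 CPM in ES (SD, n = 3 each).

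Ddx6, an RNA helicase that assembles P-bodies and links repression to decapping, had 137, 134 and 158 CPM in PAC, 19.2, 19.5 and 24.3 CPM in RS, and 39.0, 62.8 and 61.5 CPM in ES. The cell types did not overlap, with PAC highest and RS lowest. RS was 6.81-fold below PAC (log2 fold change -2.77, SE 0.20, adjusted p = 6.57e-07), and ES was 2.59-fold above RS (1.37, SE 0.19, adjusted p = 0.00015). Dcp2, the decapping enzyme, took the same order: 2.30 ± 0.238 CPM in RS and 15.5 ± 1.06 CPM in PAC (-2.76, SE 0.21, adjusted p = 9.36e-07), and 6.83 ± 1.51 CPM in ES (1.57 against RS, SE 0.21, adjusted p = 0.000102).

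Dcp1a and Dcp1b encode alternative partners of DCP2. Dcp1a had 7.81, 10.7 and 17.7 CPM in PAC, 3.13, 3.77 and 4.67 CPM in RS, and 11.9, 16.3 and 25.9 CPM in ES. Every RS library was lower than all others, and PAC and ES overlapped. The log2 fold change was -1.64 in RS against PAC (SE 0.35, adjusted p = 0.00158) and 2.22 in ES against RS (SE 0.35, adjusted p = 0.000488), the largest ES against RS change of the 35 genes. The ES against PAC value was 0.58 (adjusted p = 0.152), and it passed without PAC replicate 3 (0.94, adjusted p = 0.0273). Dcp1a shares 11671 bases of its span with Cacna1d, which averaged 4.23 CPM in PAC, 6.65 CPM in RS and 10.9 CPM in ES. Dcp1b had 84.0, 77.0 and 86.5 CPM in PAC, 79.2, 65.5 and 62.6 CPM in RS, and 41.2, 40.5 and 50.2 CPM in ES. Its ES libraries lay below all others and its RS and PAC libraries overlapped. The ES against RS value was -0.65 (SE 0.14, adjusted p = 0.00316).

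Edc4, a scaffold of the decapping complex, had 207, 198 and 222 CPM in PAC, 54.9, 51.6 and 54.1 CPM in RS, and 46.7, 66.6 and 61.2 CPM in ES. RS and ES overlapped and both lay far below PAC, by -1.96 (SE 0.15, adjusted p = 9.54e-07) in RS and -1.84 (SE 0.15, adjusted p = 1.49e-06) in ES. The decapping enhancer Edc3 changed by -1.04 (adjusted p = 0.000196) in RS and -1.05 (adjusted p = 0.00021) in ES against PAC.

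Lsm14a and Lsm14b encode paralogs of an RNA-binding P-body protein and moved in opposite directions. Lsm14a had 15.8, 20.7 and 19.5 CPM in PAC, 33.1, 36.0 and 36.9 CPM in RS, and 31.5, 32.1 and 34.6 CPM in ES. Every PAC library was lower than all others. Lsm14b had 60.7, 49.4 and 45.4 CPM in PAC, 10.4, 11.3 and 9.43 CPM in RS, and 18.3, 19.4 and 15.8 CPM in ES. Its PAC libraries were highest and its RS libraries lowest, with no overlap. In RS against PAC the log2 fold changes were 0.92 for Lsm14a (SE 0.14, adjusted p = 0.000148) and -2.32 for Lsm14b (SE 0.16, adjusted p = 5.99e-07). Lsm14b was higher in ES than in RS (0.78, SE 0.16, adjusted p = 0.00203). This call was lost with total counts in place of TMM factors (0.45, adjusted p = 0.0517) and on log2(FPKM + 1) with limma (0.37, adjusted p = 0.0653).

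The exonuclease genes went opposite ways in RS. Xrn1, the cytoplasmic enzyme that digests decapped RNA, had 24.2, 28.1 and 42.7 CPM in PAC, 12.7, 16.5 and 16.9 CPM in RS, and 11.7, 17.6 and 19.6 CPM in ES. All RS and ES libraries lay below PAC, with log2 fold changes of -1.04 (SE 0.25, adjusted p = 0.00265) in RS and -0.95 (SE 0.25, adjusted p = 0.0051) in ES. Xrn2, its nuclear counterpart, had 56.6, 67.0 and 71.7 CPM in PAC, 97.8, 95.6 and 92.3 CPM in RS, and 45.9, 58.0 and 62.6 CPM in ES. RS libraries were above all others, and PAC and ES overlapped. The log2 fold change was 0.55 in RS against PAC (SE 0.15, adjusted p = 0.00588) and -0.78 in ES against RS (SE 0.15, adjusted p = 0.0013).

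Of the 9 genes of nonsense-mediated decay, 5 were lower in RS than in PAC (Upf1, Smg1, Smg5, Smg8 and Smg9), Upf3b was higher, and Upf2, Upf3a and Smg6 were not called. In ES against RS Upf1, Upf2, Smg1 and Smg9 were higher, Upf3b was lower and the other 4 were not called. In ES against PAC Upf1, Smg5, Smg8 and Smg9 were lower and the other 5 were not called. As shares of the 9, 55.6% were lower in RS against PAC, 44.4% higher in ES against RS and 44.4% lower in ES against PAC. Among protein-coding genes these shares were 46.9%, 31.8% and 42.6%, and over all features 34.2%, 24.5% and 33.7%. A single gene of the 9 is 11.1%, so the shares against PAC are close to those of protein-coding genes.

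Upf1, the central helicase of the pathway, had 151, 128 and 159 CPM in PAC, 18.3, 17.7 and 18.4 CPM in RS, and 30.4, 44.3 and 49.4 CPM in ES. The 3 cell types did not overlap. RS was 8.07-fold below PAC (log2 fold change -3.01, SE 0.19, adjusted p = 2.46e-07), ES was 2.28-fold above RS (1.19, SE 0.18, adjusted p = 0.000241), and ES was 3.54-fold below PAC (-1.82, SE 0.18, adjusted p = 5.64e-06). Upf2, which bridges UPF1 and UPF3, averaged 53.7 ± 24.3 CPM in PAC, 38.4 ± 1.93 CPM in RS and 62.6 ± 6.14 CPM in ES. The ES against RS value of Upf2 was 0.70 (SE 0.25, adjusted p = 0.041), and it held in 2 of the 9 fits that left out a library, ranging from 0.62 to 0.77. The fits that lost it were those without PAC replicate 2, any RS replicate or any ES replicate. The call was also lost with total counts (0.38, adjusted p = 0.271), with NCBI genes alone (0.56, adjusted p = 0.0744) and on log2(FPKM + 1) with limma (0.44, adjusted p = 0.106). Without PAC replicate 1 the RS against PAC value of Upf2 was called (-0.71, adjusted p = 0.0155), and without PAC replicate 3 so was its ES against PAC value (0.63, adjusted p = 0.00592).

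Smg1, the kinase that phosphorylates UPF1, had 119.5, 206 and 383 CPM in PAC, 80.1, 88.3 and 101 CPM in RS, and 137, 226 and 316 CPM in ES. RS libraries were below all others, and PAC libraries differed 3.20-fold among themselves. The log2 fold change was -1.39 in RS against PAC (SE 0.41, adjusted p = 0.0126) and ran from -1.72 to -0.86 when libraries were left out. It was 1.33 in ES against RS (SE 0.41, adjusted p = 0.0243), a call that held in 4 of the 9 fits that left out a library (1.01 to 1.59) and was lost without any 1 of the RS replicates, ES replicate 2 or ES replicate 3. This call was also lost with total counts (1.04, adjusted p = 0.0898) and on log2(FPKM + 1) with limma (0.88, adjusted p = 0.0782). Smg8 and Smg9 encode the subunits that bind SMG1 and restrain it. Smg9 averaged 66.5 ± 3.57 CPM in RS and 361 ± 53.0 CPM in PAC (-2.44, SE 0.15, adjusted p = 2.29e-07), and 135 ± 14.5 CPM in ES (1.02 against RS, SE 0.14, adjusted p = 0.000167). Smg8 averaged 33.8 ± 5.03 CPM in PAC, 9.82 ± 0.691 CPM in RS and 9.67 ± 0.933 CPM in ES, with log2 fold changes against PAC of -1.78 in RS (adjusted p = 3.03e-06) and -1.80 in ES (adjusted p = 3.35e-06). Among the genes that act on the target RNA, Smg5 changed by -0.67 in RS against PAC (adjusted p = 0.00258), a call lost with the rows of NCBI genes alone (-0.28, adjusted p = 0.0909), and by -0.96 in ES against PAC (adjusted p = 0.000237). Smg6, the endonuclease, averaged 130.3 ± 17.6 CPM in PAC, 125 ± 4.77 CPM in RS and 105 ± 7.61 CPM in ES. Its ES against PAC value of -0.31 (adjusted p = 0.0568) passed without PAC replicate 1 (-0.42, adjusted p = 0.0174) or without ES replicate 3 (-0.38, adjusted p = 0.045).

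Upf3a and Upf3b encode alternative forms of the UPF3 adaptor, and Upf3b is the only X-linked gene of the 35. Upf3a had 138, 120.0 and 129 CPM in PAC, 141, 131 and 120.2 CPM in RS, and 133, 96.1 and 93.4 CPM in ES. Its cell types overlapped and it was called in none of the 3 comparisons, although without ES replicate 1 it was lower in ES than in RS (-0.46, adjusted p = 0.0112) and than in PAC (-0.44, adjusted p = 0.0097). Upf3b had 3.55, 4.75 and 4.76 CPM in PAC, 12.7, 13.0 and 10.6 CPM in RS, and 5.84, 4.62 and 6.58 CPM in ES. RS libraries were above all others, and PAC and ES overlapped. The log2 fold change of Upf3b was 1.48 in RS against PAC (SE 0.20, adjusted p = 5.83e-05), -1.09 in ES against RS (SE 0.20, adjusted p = 0.00101) and 0.38 in ES against PAC (adjusted p = 0.12).

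The uridylyl transferase genes Tut4 and Tut7 were not called between RS and PAC and separated in ES. Tut4 had 40.6, 55.8 and 91.1 CPM in PAC, 51.3, 52.1 and 51.5 CPM in RS, and 85.8, 90.0 and 94.8 CPM in ES. ES lay above RS in every library, and PAC overlapped both. Tut7 had 39.6, 39.5 and 47.8 CPM in PAC, 39.1, 41.8 and 42.2 CPM in RS, and 20.9, 27.8 and 31.4 CPM in ES. Its ES libraries were below all others. In ES against RS the log2 fold change was 0.80 for Tut4 (SE 0.23, adjusted p = 0.0152) and -0.62 for Tut7 (SE 0.16, adjusted p = 0.00922). The Tut4 call was lost without RS replicate 1 (0.78, adjusted p = 0.0508), with total counts (0.48, adjusted p = 0.135) and on log2(FPKM + 1) with limma (0.46, adjusted p = 0.0956). Tut4 was also called against PAC in the fits without PAC replicate 1 (RS -0.51, adjusted p = 0.0317) and without PAC replicate 3 (ES 0.88, adjusted p = 0.000756). Its ES against PAC value, 0.53 in the main fit (adjusted p = 0.0653), passed with upper-quartile factors (0.85, adjusted p = 0.0052) and with NCBI genes alone (0.78, adjusted p = 0.012). So it did with DESeq2 size factors, DESeq2's Wald test, the replicate block, only the 2 cell types and a minimum count of 50. Against PAC, Tut7 was lower in ES (-0.66, SE 0.16, adjusted p = 0.00401), a call that held in all 9 fits that left out a library. It was lost with upper-quartile factors (-0.36, adjusted p = 0.0605) and with only the 2 cell types compared (-0.46, adjusted p = 0.0653).

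Within a library the balance of 2 paralogs needs no scaling between libraries. Cnot6l made up 18.2% ± 3.52 of the summed FPKM of Cnot6l and Cnot6 in PAC, 35.8% ± 3.18 in RS and 68.8% ± 12.1 in ES (SD, n = 3 each). Lsm14a made up 26.1% ± 5.05 of its pair in PAC, 75.7% ± 2.19 in RS and 63.8% ± 3.50 in ES. By FPKM the more abundant gene of each of these pairs in PAC was the less abundant gene in ES. By counts the log2 ratio of Cnot6l over Cnot6 in ES was 1.47, 0.45 and -0.20, so Cnot6l stayed below Cnot6 in ES replicate 3. Cnot7 remained the larger part of its pair throughout, at 74.8% ± 1.13 in PAC, 94.3% ± 1.14 in RS and 80.9% ± 2.0 in ES, and so did Upf3a, at 98.0% ± 0.408, 94.7% ± 0.352 and 96.8% ± 0.811 in the same order. Dcp1a made up 7.80% ± 2.78 of its pair in PAC, 5.80% ± 2.60 in RS and 34.9% ± 9.0 in ES, and Tut4 62.4% ± 7.22, 61.2% ± 2.10 and 81.5% ± 2.99. The log2 ratios of the counts did not overlap between cell types in 17 of 18 comparisons. The exception was Tut4 over Tut7 in RS against PAC (exact permutation p = 0.7). Each of the 17 had an exact two-sided permutation p of 0.1, the smallest that 3 libraries against 3 can give, and a Benjamini-Hochberg adjusted value of 0.106 over the 18, so none of the ratios can pass a threshold of 0.05 in this design.

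**Figure D3:**
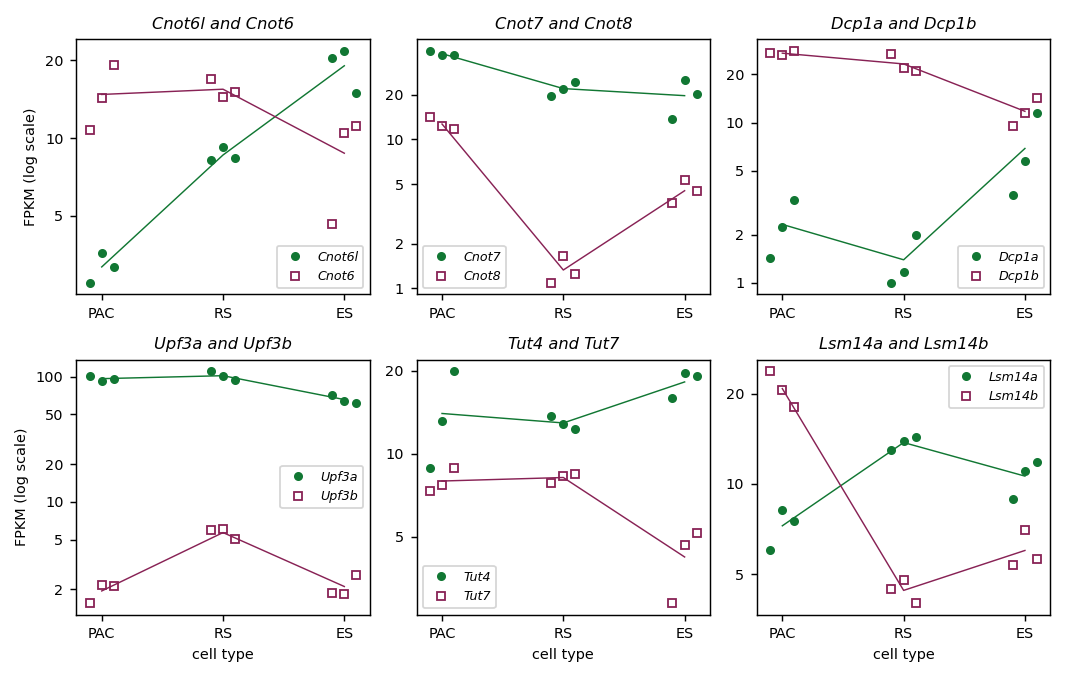
FPKM on a log scale of the genes of 6 paralog pairs in each library (points) with the mean of each cell type joined by lines, for PAC, RS and ES from left to right. The lines of Cnot6l and Cnot6 cross between RS and ES, and those of Lsm14a and Lsm14b cross between PAC and RS, while Cnot7 and Upf3a stay above their partners.

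The deposited FPKM and the counts did not always give the same fold. The log2 ratio of mean FPKM minus that of mean CPM for RS against PAC had a median of 0.06 over 17414 protein-coding genes, with -0.03 and 0.44 at its 5th and 95th percentiles. Dcp1a departed by 0.91, so that RS was 1.66-fold below PAC by FPKM and 3.13-fold below by CPM, and on log2(FPKM + 1) with limma its RS against PAC call was lost (-0.45, adjusted p = 0.231). Cnot6l departed by 0.98, with RS 2.72-fold above PAC by FPKM and 1.38-fold above by CPM. Cnot6 departed by 0.56 and was 1.05-fold higher in RS by FPKM but 1.41-fold lower by CPM. Over protein-coding genes the median departure was -0.32 in ES against RS and -0.26 in ES against PAC. Dcp1a was 2.98-fold higher in ES than in PAC by FPKM and 1.49-fold higher by CPM, and limma called it on log2(FPKM + 1) (1.16, adjusted p = 0.00772). Cnot6l was 6.02-fold higher in ES than in PAC by FPKM and 3.73-fold higher by CPM. No source used here states the transcript lengths behind the FPKM values.

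**Figure D4:**
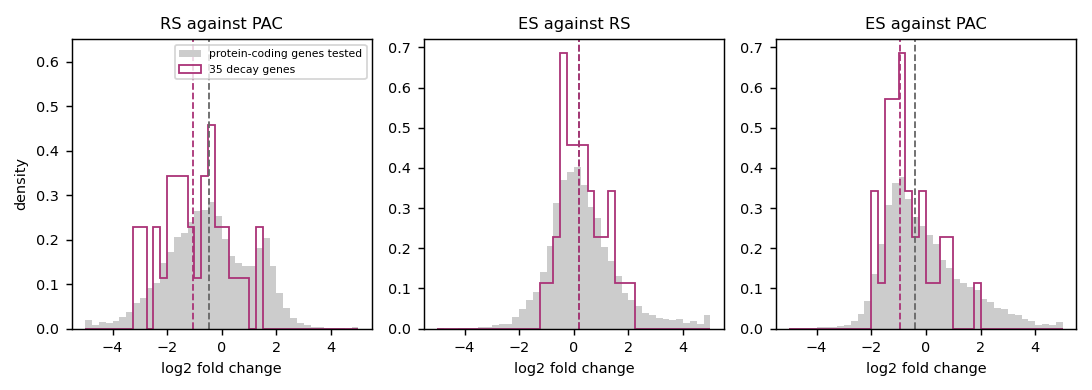
Density of log2 fold changes of all protein-coding genes tested (grey bars, values beyond 5 in the outer bins) and of the 35 decay genes (outline) for RS against PAC, ES against RS and ES against PAC, with dashed lines at the medians. The decay genes' median lies at -1.04 against -0.46 in the first panel, 0.20 against 0.18 in the second and -0.95 against -0.38 in the third.

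Replicates differed among themselves along transcript length. PAC replicate 3 over PAC replicate 1 had a median log2 ratio of 0.34 over the 35 decay genes and a Spearman rho of 0.42 with the longest annotated mRNA of each gene, as a description across genes that share these 2 libraries. Over 13888 protein-coding genes rho was 0.36, and the median ratio was 0.44 for mRNAs of 6000 bases or more and -0.27 for those under 2000 bases. ES replicate 3 over ES replicate 1 gave 0.44 and a rho of 0.39 over the decay genes and a rho of 0.30 over protein-coding genes. RS replicate 3 over RS replicate 1 had a median of 0.04 and a rho of 0.38 over the decay genes, and a rho of 0.079 over protein-coding genes. The decay genes' longest mRNAs had a median of 4445 bases, against 3044 bases for protein-coding genes. Smg1, at 15557 bases the longest of the 35, is the gene with the largest spread in PAC. The part of this length trend in the differences between cell types was not tested. Without PAC replicate 3 the median of the 35 genes in RS against PAC was -0.85, against -0.44 for protein-coding genes, with 5 higher and 21 lower.

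**Figure D5:**
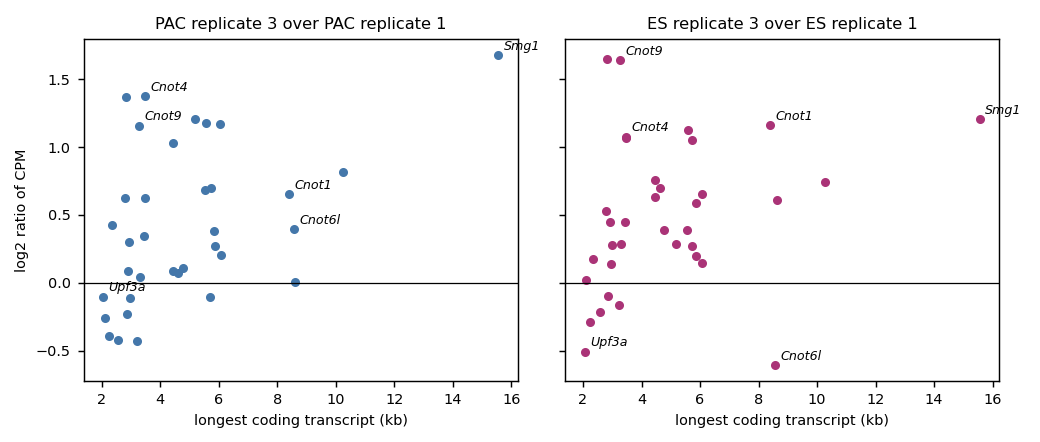
Log2 ratio of CPM between replicate 3 and replicate 1 of PAC (left) and of ES (right) against the length of the longest coding transcript, 1 point per decay gene. Smg1, at 15.6 kb, has a ratio of 1.68 in PAC, while Upf3a, at 2.06 kb, lies at -0.10.

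Other genes of the pathways, 80 in 6 lists of which 78 were tested, gave 16 higher and 44 lower in RS against PAC (median log2 fold change -0.83), 21 higher and 18 lower in ES against RS (0.10), and 14 higher and 39 lower in ES against PAC (-0.76). As shares of the 78, these are 20.5% and 56.4%, 26.9% and 23.1%, and 17.9% and 50%. Among protein-coding genes the shares were 26.3% and 46.9%, 31.8% and 21.7%, and 25.2% and 42.6%. Over all features they were 38.2% and 34.2%, 24.5% and 22.1%, and 30.6% and 33.7%. The shares between ES and RS are close to the background. Decapping partners, among them the LSM ring that binds shortened tails, had 11 of 13 lower and none higher in RS against PAC, 6 higher and 1 lower in ES against RS, and 9 lower in ES against PAC. Lsm3, a subunit of that ring, changed by -3.70 in RS against PAC (SE 0.21, adjusted p = 1.46e-07) and by 1.89 in ES against RS (SE 0.20, adjusted p = 2.77e-05). Of 17 genes of the RNA exosome, which digests RNA from the 3′ end, and its Ski partner, 11 were lower and 2 higher in RS, 3 higher and 5 lower in ES against RS, and 11 lower and 1 higher in ES against PAC. Exosc7, a ring subunit, changed by -4.29 (SE 0.43, adjusted p = 6.37e-06) in RS against PAC and by 3.15 (SE 0.45, adjusted p = 0.000189) in ES against RS.

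Of 11 further genes of nonsense-mediated decay and the exon junction, 7 were lower and 2 higher in RS, and Casc3, an exon junction core gene, changed by -2.82 (adjusted p = 0.000146). Between ES and RS 3 were higher in ES and 4 lower, and in ES against PAC 1 was higher and 7 lower. Of 6 genes listed as other deadenylases, among them Tnks1bp1, which encodes a protein associated with CCR4-NOT, 4 were lower in RS and 6 were lower in ES against PAC, where the call of Noct was lost when PAC replicate 3 was left out, and also without ES replicates 1 or 2. Between ES and RS 3 of them were lower and Noct was higher, a call that held in 3 of the 9 fits that left out a library (0.69 to 1.05). Of 16 tested adaptors that bring CCR4-NOT to its targets, 4 were higher and 8 lower in RS against PAC, 4 higher and 1 lower in ES against RS, and 5 higher and 3 lower in ES against PAC. Btg3, an antiproliferative adaptor, was 1.75 higher on the log2 scale in ES than in RS (adjusted p = 0.000309) and 1.91 higher than in PAC (adjusted p = 8.24e-05). Nanos3 changed more than Btg3 in ES against PAC (2.36, adjusted p = 0.00223), from counts of only 6, 4 and 7 in the PAC libraries.

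Of 15 genes that build or bind poly(A) tails, 8 were higher and 3 lower in RS against PAC (median 0.60), 4 were higher and 4 lower in ES against RS (median -0.15), and 7 were higher and 3 lower in ES against PAC (median 0.45). The medians of protein-coding genes were -0.46, 0.18 and -0.38 in the same order, and the difference from them was not tested. The genes higher in RS were Pabpc1l, Pabpn1, Papola, Papolb, Tent4b, Tent5b, Tent5c and Tent5d, and those lower were Pabpc4, Papolg and Tent5a. Tent5a also had the largest called change of the list in ES against PAC (-3.06, SE 0.61, adjusted p = 0.000934). Papolb encodes a testis-specific poly(A) polymerase and Pabpn1 the nuclear poly(A)-binding protein. Papolg, another poly(A) polymerase, changed by -2.82 (SE 0.16, adjusted p = 1.34e-07) in RS against PAC, and Pabpc4, a cytoplasmic poly(A)-binding protein, by 2.41 (SE 0.33, adjusted p = 0.000123) in ES against RS.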

How the data were processed

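RNA from PAC, RS and ES cells was measured in 3 libraries each. The authors deposited a table of estimated counts and a table of FPKM for the same features, with no normalization of the counts. HISAT2, StringTie and the build GRCm38.p6 were used per the submitters' processing notes, which give no versions. Per the labels' protocols, dUTP was used in the second strand. No source used here says whether the counting used strand. Of the deposited count values 18.85% are not whole, so counts were rounded. Features were filtered with edgeR's filterByExpr (minimum count 10), which kept 26030. Library sizes were scaled with TMM factors, and all 9 libraries entered 1 quasi-likelihood fit (two-sided, robust). Adjustment was by Benjamini-Hochberg across every feature in the fit, and calls were made at an adjusted p below 0.05. Symbols, lengths and promoters came from RefSeq tables and the GENCODE annotation of GRCm38.p6.

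The genes and lists were chosen with earlier results of these data known. Values in every library are given for the 12 genes of the 6 paralog pairs and, in each role and comparison, for the called gene with the largest change. Of each companion list, the called gene with the largest change in a comparison may be named. Of the genes that build or bind poly(A) tails, all those called in RS against PAC are named. Marker lists covered PAC, RS, ES, spermatogonia, Sertoli, Leydig, peritubular and vascular, and macrophage and blood cells, and Nanos3 is in both the spermatogonial and the adaptor list. Of 10 RS markers 9 were higher in RS than in PAC and 8 were lower in ES than in RS. The SDs are between the libraries of a cell type and the SEs come from the quasi-likelihood fit, so both include the spread between replicates. Alternatives were other scalings, filters, DESeq2, limma on log2(FPKM + 1) and log2(FPKM + 0.1), a replicate block, the 2 cell types alone and leaving out each library. The software was edgeR 4.0.16, DESeq2 1.42.0 and limma 3.58.1 under R 4.3.3, with pandas 2.3.3, matplotlib 3.10.9 and Python 3.11.15.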

Additional observations from a re-analysis of the deposited data

How the results depend on the processing

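Of 2193 alternative values of single genes, 2045 kept their direction and their side of the threshold or stayed uncalled, 60 lost a call, 86 gained a call and 2 reversed with a call, while 94 of the uncalled values changed sign within -0.50 and 0.45. With the rows of NCBI genes alone Smg6 (0.32) and Tut7 (0.35) were called higher in RS against PAC, where the values were -0.07 and -0.04 and not called, and 8 genes were called higher in that comparison. In ES against RS the counts moved to 7 higher and 10 lower with total counts, 8 lower with NCBI genes alone, and 6 and 11, 6 and 10, and 7 and 8 with limma on FPKM (pseudocount 1, pseudocount 0.1 and no filter). In ES against PAC 6 were higher with upper-quartile factors and with NCBI genes alone, 5 with a minimum count of 50 and 5 with the replicate block, and leaving out a library gave 3 to 6, with 6 without PAC replicate 3. Leaving out a library gave 4 to 5 higher and 21 to 24 lower in RS against PAC, 8 to 12 higher and 4 to 6 lower in ES against RS, and 19 to 24 lower in ES against PAC. The log2 ratio of Tut4 over Tut7 in RS against PAC was -0.16 and lay between -0.38 and 0.066 when a library was left out, 0.066 being the value without PAC replicate 3. The cause was not tested in any of these.

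No source used here says whether same-numbered libraries share animals or a preparation. Their deviations from the mean of their cell type correlated by -0.016 to 0.106 for RS and PAC, -0.04 to 0.068 for ES and RS and -0.024 to 0.273 for ES and PAC. Not every library correlated best with its own number. ES replicates 1 and 3 correlated best with PAC replicates 1 and 3 (0.185 and 0.273), and ES replicate 2 with PAC replicate 1 (0.016). Deviations from means of 3 libraries cannot settle whether same-numbered libraries share a source. With the replicate block 5 genes were higher and 22 lower in RS against PAC, 12 and 5 in ES against RS, and 5 and 23 in ES against PAC. The lowest counts among the 35 genes were those of Cnot3, at 12 to 136 per library, and whether depth limits its calls was not tested.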
